A study of Mus musculus with 20 samples.

Results

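The genes described here are 48 genes of DNA replication, from the proteins that load the replicative helicase onto origins to the polymerases, the sliding clamp, the enzymes of nucleotide supply and the proteins that copy DNA methylation and protect the fork. They were taken by name from the 48795 genes of the deposited table, and all 48 passed the filter on low values and were tested in every comparison. RNAseq was performed on whole hearts of E13.5 mouse embryos, with 20 libraries in 4 groups of 5. Each mutant strain carries, in every cell, a duplicated segment of chromosome 16, which models part of the trisomy of Down syndrome and leaves the genes within it in 3 copies. The Dp3Tyb duplication runs from Mir802 to Zbtb21, and the shorter Ts1Rhr duplication from Cbr1 to Fam3b. Each strain was compared with its own wild-type (WT) littermates, and a strain with its WT group is called a cohort here. The study asked which pathways change in the strain with heart defects (Dp3Tyb) and the strain without them (Ts1Rhr). Against that description, a label of Ts1Rhr replicates 1 and 2 reads as having heart defects. None of the 48 genes lies in a duplicated segment: Mcm4 (chr16:15623897-15637400), Cdc45 (chr16:18780447-18811972) and Rfc4 (chr16:23113948-23127730, all GRCm38.p6) are on chromosome 16 but outside it.

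A replication origin is used once per cell cycle. In G1 phase the origin recognition complex, Cdc6 and Cdt1 load the ring-shaped MCM2-7 helicase, and geminin (Gmnn) blocks reloading once S phase has begun. In S phase Cdc45 and the GINS complex switch the helicase on, primase and the DNA polymerases copy both strands on the sliding clamp PCNA, and much of this machinery is transcribed under E2F factors, which the retinoblastoma family and the DREAM complex hold in check. The cardiomyocytes and other cells of the embryonic heart are still dividing at this stage.

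Depth was between 6.60 M and 19.6 M reads per heart. Values are normalised reads, that is reads divided by a library factor, and the 48 genes lay between 62.9 and 4803 in every heart. All 10 cardiomyocyte markers were detected (the least abundant, Ryr2, at a median of 4190.5), and among markers of neighbouring organs medians ran from 0 (Sftpc) to 152 (Krt8) for lung and foregut and from 0 (Fgb) to 12.9 (Afp) for liver. In 7 hearts over 10% of the reads came from mitochondrially encoded genes, against 4.85% in the lowest: replicate 5 of both groups of the Dp3Tyb cohort (19.5% in WT and 15.5% in Dp3Tyb), WT replicates 1, 2 and 4 and Ts1Rhr replicates 1 and 2 of the Ts1Rhr cohort. Results are therefore also given without these 7 libraries. Replicate numbers only name a heart.

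Many of these genes share short E2F recognition words near their starts, which the choice of genes did not use. The 8-base E2F words TTTCCCGC, TTTGGCGC, TTTGCCGC and TTTCGCGC were searched on both strands of promoter windows from RefSeq (GRCm38.p6, 250 bases before to 50 after an annotated start). Of the 48 genes, 39 had a window in that table, and 16 of these 39 (41.0%) held at least 1 word in at least 1 window, against 2.61% of all 27025 genes with a window. Counted by window, the shares were 34% (16 of 47) and 2.26% (744 of 32851). The CCAAT word, which NF-Y binds, was in 59.6% of the members' windows and in 37.4% of all windows. A match is a string of letters and not a measured binding site. Stretches just upstream of 4 members with a word are shown because they cover the helicase, its activation and the clamp loader. The E2F words are in capitals, and in Mcm6 and Mcm5 a word on each strand overlap into 1 run of capitals.

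Mcm6: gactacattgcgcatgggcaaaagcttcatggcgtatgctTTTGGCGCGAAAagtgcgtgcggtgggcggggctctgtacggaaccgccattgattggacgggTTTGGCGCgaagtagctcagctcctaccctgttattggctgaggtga

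Mcm5: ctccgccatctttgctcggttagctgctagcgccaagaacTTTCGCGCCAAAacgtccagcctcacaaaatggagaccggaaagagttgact

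Gins3: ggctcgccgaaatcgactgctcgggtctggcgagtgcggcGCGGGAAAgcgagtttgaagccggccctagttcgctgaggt

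Rfc3: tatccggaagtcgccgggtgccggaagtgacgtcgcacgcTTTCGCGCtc

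These are chr1:128359706-128359855, - strand for Mcm6, whose capitals hold 3 words, chr8:75109316-75109407, + strand for Mcm5, chr8:95633478-95633558, + strand for Gins3 and chr5:151651209-151651258, - strand for Rfc3, all of GRCm38.p6 and written 5′ to 3′ on the strand of the gene. Mcm7, Orc1, Cdc6, Dnmt1, Uhrf1 and Pola1 also held a word upstream of a start. In Clspn, Lig1, Pold1, Cdt1, Mcm3 and Pole2 it lay only in the bases after the start.

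Replication genes were lower in the hearts of both strains by a small amount. In these bulk samples fewer dividing cells and less RNA per dividing cell cannot be told apart. In Dp3Tyb hearts 47 of the 48 were below WT (51.1% of all 14763 genes tested were), and their median log2 fold change was -0.13, a 0.912-fold level. In Ts1Rhr hearts 43 of 48 were below WT (background 50.4% of 14867 genes), with a median of -0.11, a 0.925-fold level. In both comparisons the median of all genes tested was within 0.01 of 0. There were 43 members lower in both strains (background 32.3%), and Tk1 was the only member higher in both. In a fit of all 20 hearts with a term for cohort, 46 of 48 were lower in the mutants (background 49.2%), by a median of -0.12. The number lower stayed at 39 or more in Dp3Tyb (39 without Dp3Tyb replicate 5) and at 40 or more in Ts1Rhr when 1 library was left out. The plot of fold changes shows this as a column of points to the left of 0 with error bars that mostly reach close to 0.

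**Figure D1:**
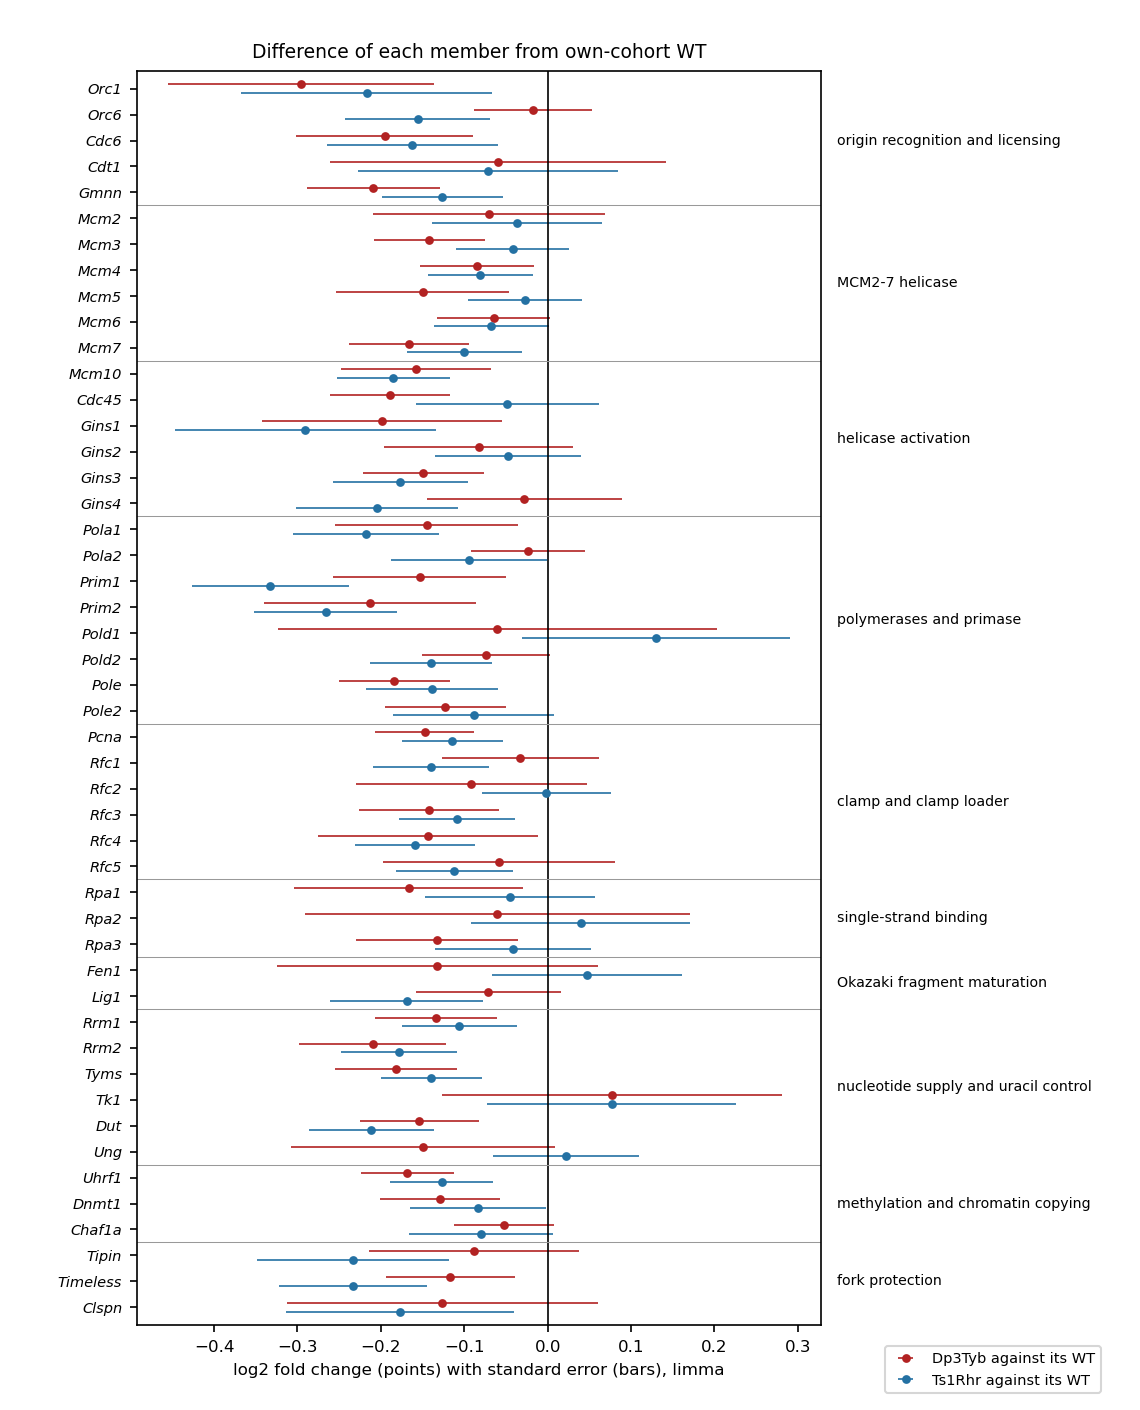
Log2 fold change (points) of each of the 48 members against the WT hearts of its cohort, with the standard error (bars) from limma, for Dp3Tyb (red) and Ts1Rhr (blue), 5 hearts against 5. Genes are grouped by role, and 47 red and 43 blue points lie left of 0.

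No member passed the threshold by itself. By limma with Benjamini-Hochberg adjustment over all genes, 0 of the 48 had an adjusted p under 0.05 in Dp3Tyb (background 0.0542%), 0 in Ts1Rhr (0.0269%) and 0 in the joint fit (0.248%). The smallest adjusted p in the joint fit by limma was 0.116, for Uhrf1. At an unadjusted p under 0.05, 8 members were lower in Dp3Tyb (background 1.21%), 9 in Ts1Rhr (2.66%) and 21 in the joint fit (4.09%), and 0 were higher in any of the 3. Leaving out 1 library moved these counts. In Dp3Tyb the count was 2 without WT replicate 4 (background 0.714%), and 5 without WT replicate 1 (1.31%), WT replicate 2 (0.775%) or Dp3Tyb replicate 2 (1.0%). In Ts1Rhr there were 20 without WT replicate 5 (5.78%), 15 without Ts1Rhr replicate 2 (4.74%) and 4 without Ts1Rhr replicate 5 (2.29%). With a term for the mitochondrial share the counts were 23 in Dp3Tyb (839 of all 14763 genes), 16 in Ts1Rhr (542 of 14867) and 32 jointly (1211 of 15348). With weights for library quality (array weights) they were 21 (829 of 14763), 27 (1453 of 14867) and 36 (1209 of 15348). A joint fit by DESeq2 on whole reads recovered from the values called 5 members lower (Uhrf1, Pcna, Rrm2, Tyms and Dut), where 0.476% of all genes were called lower. Those 5 had DESeq2 adjusted p-values from 0.00737 to 0.0458, and edgeR's quasi-likelihood test called 0.

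No difference between the 2 duplications was detectable in these genes. The interaction contrast, which tests whether the Dp3Tyb difference departs from the Ts1Rhr difference, gave 0 members at an adjusted p under 0.05 (background 0.013%) and 0 at an unadjusted p under 0.05 (background 1.52%). The difference had a median of -0.03 over the members, with 26 of 48 lower in Dp3Tyb, a direction that turned under other settings. The median was 0.03 with 19 of 48 lower without Dp3Tyb replicate 5, and 0.02 with 22 lower without the 7 hearts with over 10% mitochondrial reads. With array weights it was 0.03 with 15 lower, and 4 members were higher at an unadjusted p under 0.05 (background 4.24%). In the fit without weights the smallest limma p was 0.218, for Orc6 (0.14 ± 0.11, log2, SE). The standard error of the difference had a median of 0.13 over the members, about the size of the strain medians of -0.13 and -0.11. A departure of that size would not pass even the unadjusted threshold. Prim1, with a larger one of 0.18 ± 0.14, had a limma p of 0.221. The 2 sets of fold changes share no hearts, and across the 48 genes they had a Pearson correlation of 0.402, against 0.0291 across all 14605 genes tested in both. Genes of 1 pathway move together within a heart, so they are not independent points and no p is given.

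The heatmap of single hearts shows how evenly the difference was spread. At least 4 of the 5 mutant hearts lay below the WT mean for 38 members in Dp3Tyb (background 32.4%) and for 38 in Ts1Rhr (27.5%). The mutant and WT groups did not overlap at all for 1 member in Dp3Tyb, Uhrf1 (background 0.474%), and for 3 in Ts1Rhr, Mcm10, Prim2 and Rfc4 (0.498%). The mean over all 48 members (log2, centred per gene over the 20 hearts) was 0.05 ± 0.04 (SD, n = 5) in WT and -0.07 ± 0.09 in Dp3Tyb, and 0.07 ± 0.06 in WT and -0.04 ± 0.06 in Ts1Rhr. Dp3Tyb replicate 5 was the lowest heart at -0.21, while Dp3Tyb replicate 1 at 0.04 and Ts1Rhr replicate 3 at 0.03 lay within their WT ranges.

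**Figure D2:**
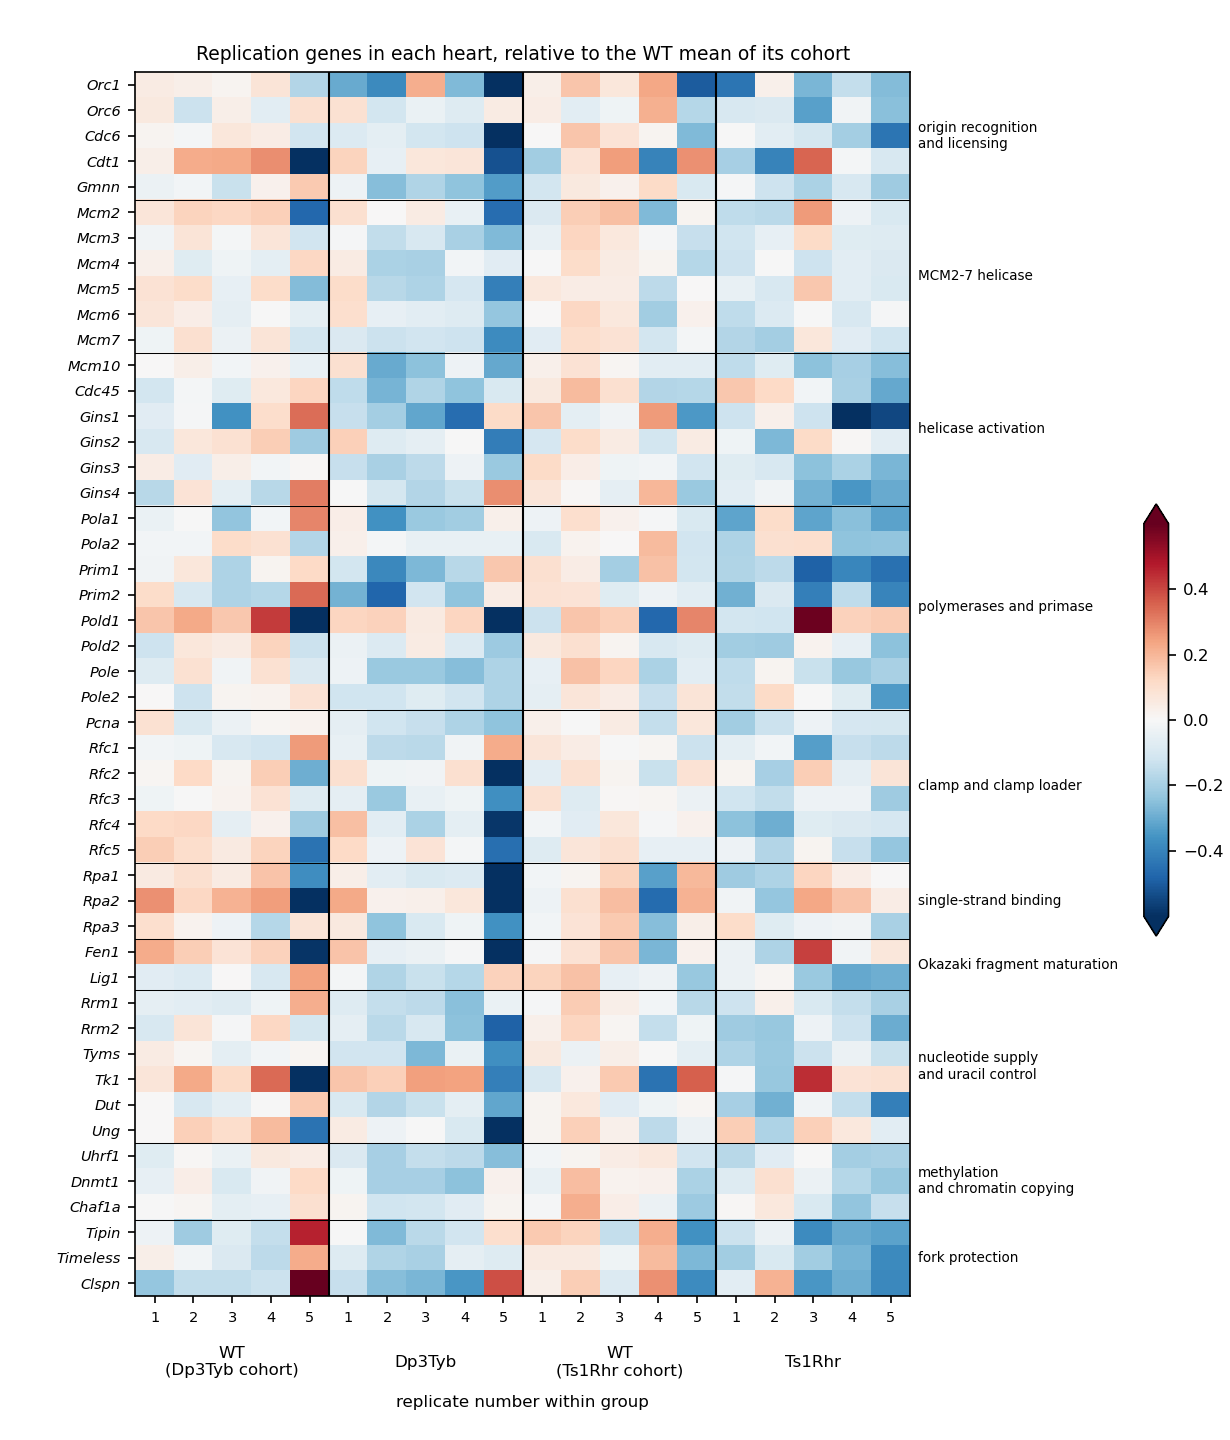
Each cell is the log2 difference of a gene (rows, grouped by role) in a heart (columns, by group and replicate) from the WT mean of its cohort, blue below and red above, with colours saturated beyond 0.6. Both mutant blocks are mostly blue, and replicate 5 of both groups in the Dp3Tyb cohort stands out by strong colours in both directions.

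Origin recognition and licensing genes came first in the order of replication and were all lower, 5 of 5 in both strains, with subgroup medians of -0.20 in Dp3Tyb and -0.16 in Ts1Rhr. Orc1, the ATPase of the origin recognition complex, had the lowest log2 fold change of the subgroup (-0.30 in Dp3Tyb and -0.22 in Ts1Rhr). Gmnn, the inhibitor of reloading, measured 444, 450.0, 415, 463 and 508 in the WT hearts of the Dp3Tyb cohort and 445, 381, 401, 384 and 361 in Dp3Tyb hearts. All but Dp3Tyb replicate 1 lay below the lowest WT heart, and the difference was -0.21 ± 0.08 (log2, SE; limma adjusted p = 1.0). In the Ts1Rhr cohort Gmnn was 391, 439, 430.0, 457 and 396 in WT and 420.4, 387, 369, 395 and 364 in Ts1Rhr hearts. Of these, 3 mutant hearts were below every WT heart and 2 overlapped them (-0.13 ± 0.07, limma adjusted p = 0.795).

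Orc6, a further subunit of the origin recognition complex, was the member whose difference departed most between strains by p. It measured 509, 446, 501, 468 and 523 in WT and 521, 452, 475, 462 and 505 in Dp3Tyb hearts, which overlapped fully. The Ts1Rhr cohort gave 539, 499, 513, 605 and 463 in WT and 487, 492, 416, 514 and 439 in Ts1Rhr hearts, where only replicates 3 and 5 were below every WT heart. The fold changes were -0.02 ± 0.07 and -0.16 ± 0.09 (log2, SE), and the sign of the Dp3Tyb value turned when WT replicate 5 or Dp3Tyb replicate 2 was left out. Cdc6 and Cdt1, which load the helicase together, stood at -0.20 and -0.06 in Dp3Tyb and at -0.16 and -0.07 in Ts1Rhr.

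The MCM2-7 helicase subunits, which form 1 ring, differed little from WT. All 6 were lower in both strains, with medians of -0.11 in Dp3Tyb and -0.05 in Ts1Rhr. In Dp3Tyb the subunits ranged from -0.17 for Mcm7 to -0.06 for Mcm6, and in Ts1Rhr from -0.10 for Mcm7 to -0.03 for Mcm5. Over the 20 hearts, centred on group means, the 15 pairs of the 6 subunits had a median Pearson correlation of 0.722, compared with 0.214 over all 1128 pairs of members and -0.002 over pairs of all genes. In the slope fit given further on, Mcm2, Mcm5, Mcm6 and Mcm7 fell with the share of mitochondrial reads, while Mcm3 and Mcm4 did not pass the threshold. The part of that share in these correlations was not tested. Levels per kilobase of transcript (kb) in the 10 WT hearts did not share 1 value: Mcm6 was at 891 ± 55.9 (SD) and Mcm7 at 681 ± 43.4, above Mcm2 at 548 ± 74.5, Mcm4 at 392 ± 23.7, Mcm3 at 320.1 ± 21 and Mcm5 at 298 ± 24.5. Over WT hearts the range of Mcm6 lay above that of Mcm7, and that of Mcm7 above that of Mcm2, whereas Mcm2, Mcm4, Mcm3 and Mcm5 each overlapped the next in this order. Per-kb levels use the canonical GENCODE transcript, so a different isoform would change them.

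Helicase activation genes were lower throughout, 6 of 6 in both strains, with medians of -0.15 and -0.18. Mcm10, a scaffold that helps start the helicase, measured 406, 422, 400.4, 381 and 381 in WT and 358, 379, 335, 346 and 333 in Ts1Rhr hearts. Every Ts1Rhr heart was below every WT heart of its cohort, at -0.19 ± 0.07 (SE, limma adjusted p = 0.795). In the Dp3Tyb cohort Mcm10 was tight in WT hearts (361, 369, 355, 366 and 349) and wide in Dp3Tyb hearts (385, 292, 303, 352 and 291). Replicates 2, 3 and 5 were below all WT hearts and replicate 1 was above all of them, and the difference was -0.16 ± 0.09.

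Cdc45, the helicase co-factor, measured 386, 413, 396, 436 and 455 in WT and 375, 344, 367, 352 and 392 in Dp3Tyb hearts. Only Dp3Tyb replicate 5 reached the WT range (-0.19 ± 0.07, limma adjusted p = 1.0). In the other cohort the groups overlapped, with 398, 436, 408, 339 and 339.6 in WT and 428, 415, 377, 334 and 308 in Ts1Rhr hearts and a difference of -0.05 ± 0.11. The interaction for Cdc45 was -0.14 ± 0.13 (limma adjusted p = 1.0), so the strains were not shown to differ.

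Gins3, a subunit of the GINS complex that binds the helicase, varied little within groups. Its values were 232, 215, 230.3, 223 and 226 in WT and 204, 196, 202, 220.0 and 193 in Dp3Tyb hearts, and only Dp3Tyb replicate 4 reached the WT range. They were 239, 227, 217, 218 and 204 in WT and 209.6, 206, 186, 193 and 182 in Ts1Rhr hearts, with 3 of 5 below all WT hearts. The joint difference was -0.16 ± 0.05 (limma adjusted p = 0.185). Of the 6 activation genes, Gins1 had the lowest fold change in both strains (-0.20 and -0.29), and the smallest in size were Gins4 in Dp3Tyb (-0.03) and Gins2 in Ts1Rhr (-0.05).

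Among polymerases and primase, 8 of 8 were lower in Dp3Tyb (median -0.13) and 7 of 8 in Ts1Rhr (median -0.14), the exception being Pold1. Prim1 encodes the catalytic subunit of primase, which makes the RNA primers, and Prim2 its partner. Prim1 was 677, 652, 549, 716 and 586 in WT and 558, 568, 452, 483 and 463 in Ts1Rhr hearts, the strongest log2 fold change of any member in any strain (-0.33 ± 0.09, SE, limma adjusted p = 0.795). The 3 Ts1Rhr hearts with few mitochondrial reads lay below all WT hearts and the other 2 within the WT range. In the Dp3Tyb cohort it was 533, 568, 476, 548 and 587 in WT and 501, 414, 449, 483 and 606 in Dp3Tyb hearts, replicate 5 standing above all WT hearts (-0.15 ± 0.10).

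Prim2 showed groups that did not overlap in the Ts1Rhr cohort, 339, 337, 303, 312 and 305 in WT and 261, 301, 239.8, 287 and 242 in Ts1Rhr (-0.27 ± 0.09, limma adjusted p = 0.795). In the Dp3Tyb cohort WT hearts were spread over a wide range (328, 284, 267, 269.9 and 385) and Dp3Tyb hearts measured 249, 218, 281, 257 and 313, 3 of them below all WT hearts (-0.21 ± 0.13). Both primase genes were higher in hearts with more mitochondrial reads, as given further on.

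Pole, the catalytic subunit of the leading-strand polymerase, was below the lowest WT heart in more Dp3Tyb than Ts1Rhr hearts. Values were 864, 972, 899, 971 and 857 in WT and 891, 782, 781, 762 and 800.0 in Dp3Tyb hearts, where all but replicate 1 were below the lowest WT heart (-0.18 ± 0.07, limma adjusted p = 1.0). The Ts1Rhr cohort gave 886, 1036, 1003, 806 and 879.8 in WT and 825, 928, 837, 784 and 803 in Ts1Rhr, with 2 of 5 below all WT hearts (-0.14 ± 0.08). In Dp3Tyb the subgroup ranged from -0.21 (Prim2) to -0.02 (Pola2, a regulatory subunit of the priming polymerase), and in Ts1Rhr from -0.33 (Prim1) to 0.13 (Pold1, catalytic subunit of the lagging-strand polymerase).

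The clamp and its loader were lower in 6 of 6 genes in both strains, with medians of -0.12 and -0.11. Pcna, the sliding clamp, had the highest level per kb of all members (1476 ± 78.2 in WT hearts), and Orc1 the lowest (31.7 ± 4.06). It measured 2429, 2140.2, 2225, 2300.0 and 2317 in WT and 2195, 2097, 2071, 2005 and 1931 in Dp3Tyb hearts, and only Dp3Tyb replicate 1 was not below the lowest WT heart (-0.15 ± 0.06, limma adjusted p = 1.0). In the Ts1Rhr cohort it was 2241, 2192, 2274, 1987 and 2303 in WT and 1898, 2011, 2153, 2049 and 2041 in Ts1Rhr. WT replicate 4 was the lowest WT heart of that cohort, and only Ts1Rhr replicate 1 lay below it (-0.11 ± 0.06). Rfc4, a small subunit of the clamp loader, was 342, 331, 364, 345 and 353 in WT and 292, 283, 329, 326 and 323 in Ts1Rhr hearts. These groups did not overlap (-0.16 ± 0.07, limma adjusted p = 0.795), although the nearest pair was 329.5 against 330.9 and part of the gene shares bases with Eif4a2. In the other cohort it was 392, 394, 348, 367 and 311 in WT and 409, 346, 316, 347 and 241 in Dp3Tyb, from above all WT hearts (replicate 1) to below them (replicate 5). The 5 clamp loader genes ranged in Dp3Tyb from -0.14 for Rfc4 to -0.03 for Rfc1, and in Ts1Rhr from -0.16 for Rfc4 to -0.0014 for Rfc2. Among the loader genes per kb, Rfc1, the large subunit, was at 349.9 ± 32.8 and Rfc5 at 138 ± 15.3, the highest and lowest of the 5, and the range of Rfc5 overlapped that of Rfc2 at 149.6 ± 13.8.

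Single-strand binding genes were lower in 3 of 3 in Dp3Tyb and 2 of 3 in Ts1Rhr, and Okazaki fragment maturation genes in 2 of 2 and 1 of 2. Rpa1, Rpa2 and Rpa3, the subunits of replication protein A, had log2 fold changes of -0.17, -0.06 and -0.13 in Dp3Tyb and -0.05, 0.04 and -0.04 in Ts1Rhr. Fen1, the flap nuclease, was at -0.13 and 0.05, and Lig1, the ligase that seals the fragments, at -0.07 and -0.17. None of these 5 had an unadjusted p under 0.05 in the limma fits of either strain or in the joint limma fit without further terms.

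Nucleotide supply held 3 of the 4 members with the smallest p in the joint limma fit, and 5 of its 6 genes were lower in Dp3Tyb and 4 of 6 in Ts1Rhr. Rrm2, the regulatory subunit of ribonucleotide reductase, measured 2345, 2641, 2495, 2734 and 2331 in WT and 2409, 2237, 2339, 2109 and 1789 in Dp3Tyb hearts. Of these, replicates 2, 4 and 5 were below all WT hearts (-0.21 ± 0.09, limma adjusted p = 1.0). The values were 2421, 2595, 2389.8, 2149 and 2328 in WT and 2049, 2025, 2323, 2174 and 1929.6 in Ts1Rhr, again with 3 of 5 below all WT hearts (-0.18 ± 0.07). The joint difference was -0.19 ± 0.05 (limma adjusted p = 0.176).

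Tyms, the enzyme that makes thymidylate, varied little between WT hearts. It was 572, 557, 532, 547 and 558 in WT and 510.1, 510.2, 459, 538 and 428 in Dp3Tyb hearts, and 579.8, 544, 571, 555 and 534 in WT and 489.8, 477, 509, 544 and 508 in Ts1Rhr hearts. In each strain 4 of 5 mutant hearts lay below the lowest WT heart, and replicate 4 was the exception in both (-0.18 ± 0.07 and -0.14 ± 0.06, joint -0.16 ± 0.04, limma adjusted p = 0.15). Dut, which removes dUTP so that it is not built into DNA, was 707, 661, 679, 705 and 787 in WT and 663, 625, 644, 678 and 569 in Dp3Tyb hearts, with 3 of 5 below all WT hearts (-0.15 ± 0.07). It was 785, 810.5, 738, 762 and 781 in WT and 675, 634, 765, 703 and 583 in Ts1Rhr, where only replicate 3 reached the WT range (-0.21 ± 0.08, joint -0.18 ± 0.05, limma adjusted p = 0.153).

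Tk1, thymidine kinase, was the member above WT in both strains and was added for that reason after its values were seen. It measured 514, 571, 529, 618 and 288 in WT and 548, 539, 579, 576 and 366 in Dp3Tyb hearts, and 462, 503, 552, 364 and 634 in WT and 492, 423, 672, 523 and 528 in Ts1Rhr. The lowest value of each group came from a heart with over 10% mitochondrial reads, and the fold changes of 0.08 ± 0.20 and 0.08 ± 0.15 were smaller than their errors. The other nucleotide supply gene above 0 in Ts1Rhr was Ung, which removes uracil from DNA, at 0.02, against -0.15 in Dp3Tyb.

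**Figure D3:**
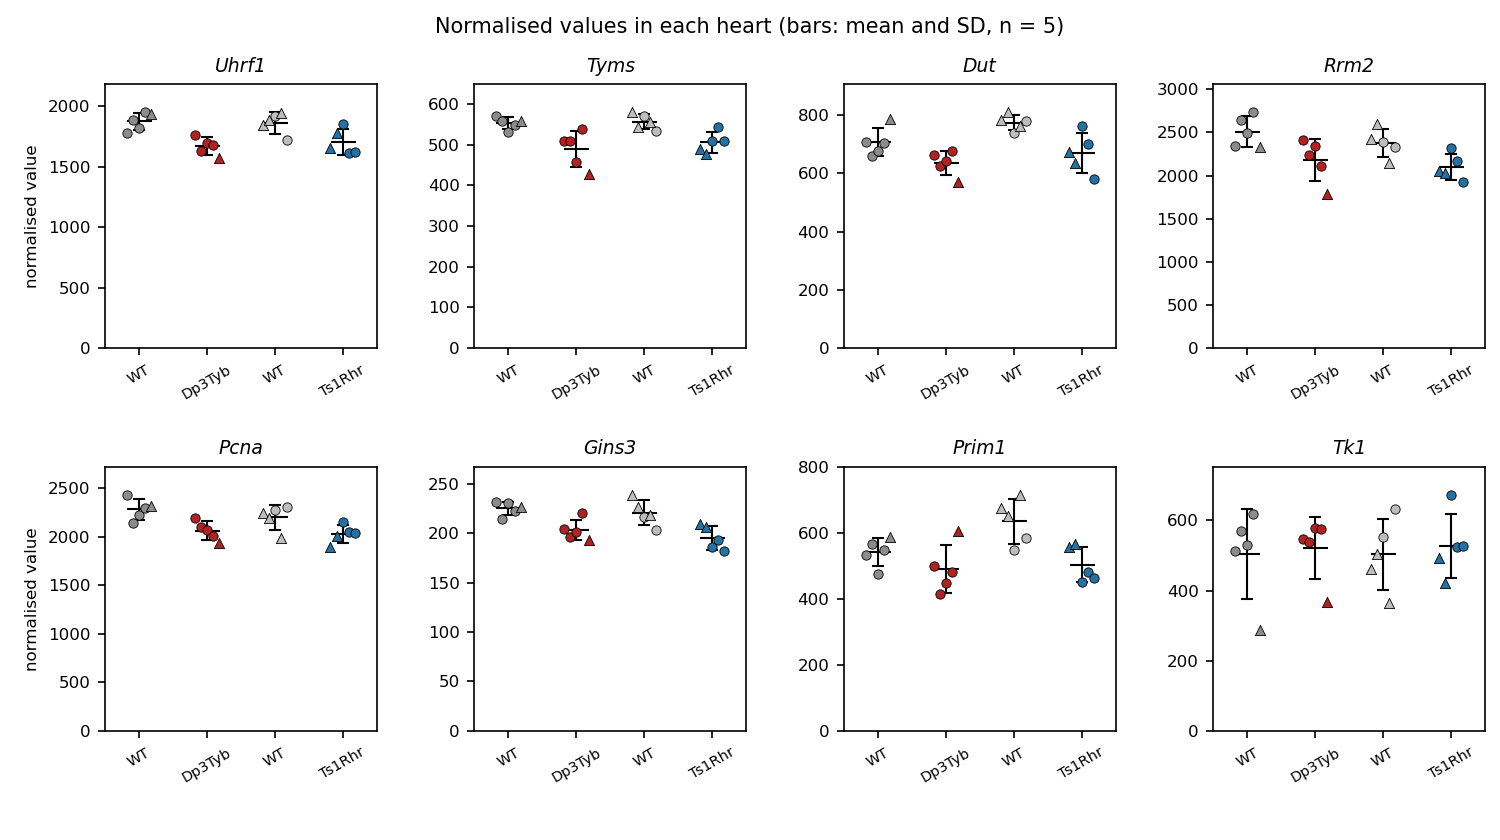
Normalised value of 8 members in each heart (points, 5 per group, bars for mean and SD), with WT in grey, Dp3Tyb in red and Ts1Rhr in blue, and triangles for the 7 hearts with over 10% mitochondrial reads. Mutant points of Uhrf1, Tyms, Dut, Rrm2, Pcna and Gins3 sit slightly below WT, and Tk1 is low in hearts drawn as triangles.

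Uhrf1, which recognises hemimethylated DNA behind the fork and brings in the methyltransferase Dnmt1, had the smallest p of all members in Dp3Tyb and in the joint fit. It measured 1783, 1883, 1824, 1951 and 1935 in WT and 1767, 1630.0, 1695, 1682 and 1569 in Dp3Tyb hearts. Every Dp3Tyb heart was below every WT heart, though the highest mutant heart at 1767 was close to the lowest WT heart at 1783 (-0.17 ± 0.06, limma adjusted p = 1.0). It was 1843, 1886, 1919.6, 1948 and 1722 in WT and 1659, 1778, 1858, 1617 and 1626 in Ts1Rhr, with 3 of 5 below all WT hearts (-0.13 ± 0.06, joint -0.15 ± 0.04). Dnmt1 was at -0.13 and -0.08, and Chaf1a, the large subunit of the histone chaperone CAF-1, at -0.05 and -0.08.

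Fork protection genes were lower in 3 of 3 in both strains, with medians of -0.12 in Dp3Tyb and -0.23 in Ts1Rhr. Timeless, which with Tipin keeps the helicase and polymerases coupled, was 728, 727, 689.7, 800.0 and 581 in WT and 606, 659, 607, 578 and 538 in Ts1Rhr hearts. Only 2 Ts1Rhr hearts, replicates 4 and 5, were below the lowest WT heart (-0.23 ± 0.09, limma adjusted p = 0.795). The Dp3Tyb cohort gave 670.0, 647, 617, 587 and 763 in WT and 619.9, 577, 572, 629.7 and 619.6 in Dp3Tyb, which overlapped in 3 of 5 hearts (-0.12 ± 0.08). Tipin stood at -0.09 and -0.23, and Clspn, which passes on the checkpoint signal, at -0.13 and -0.18.

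The share of mitochondrially encoded reads moved with many of these genes. In a joint limma fit with cohort and genotype, added after the values were seen, 31 of 48 members (64.6%) changed with that share at an adjusted p under 0.05, close to the 61.8% of all genes. Of these, 17 fell and 14 rose. Per 10 percentage points, Pold1 changed by -0.79 ± 0.06 (log2, SE), Rpa2 by -0.68 ± 0.05, Tk1 by -0.63 ± 0.05 and Cdt1 by -0.63 ± 0.06. Clspn went the other way at 0.58 ± 0.04, followed by Gins1 at 0.40 ± 0.08, Tipin at 0.39 ± 0.05 and Gins4 at 0.34 ± 0.05, and the primase genes at 0.26 ± 0.06 and 0.24 ± 0.06. Uhrf1 (0.02 ± 0.04), Dut (0.01 ± 0.05), Tyms (-0.07 ± 0.04) and Pcna (-0.07 ± 0.04) did not pass the threshold.

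Pold1, shown with Clspn after their values were seen, gives the pattern by heart. It was 682, 709.6, 679, 812 and 308 in WT and 663, 669, 631, 664 and 359 in Dp3Tyb hearts, low in replicate 5 of both groups. Clspn was 581, 614, 615, 624 and 1075 in WT and 619.9, 570.4, 563, 536 and 891 in Dp3Tyb hearts, high in the same 2 libraries. Over the 20 hearts, centred on group means, Tk1 correlated with Pold1 at a Pearson r of 0.974 and with Clspn at -0.917, and Tipin with Clspn at 0.897. These points share their library and its depth. Members that fell had a median transcript GC content of 53.4%, those that rose 47.5% and the other members 47.9%. Across members the slope ranked against GC content with a Spearman rho of -0.487, and across 15217 genes at -0.464. RNA quality was not measured in the deposited data, and the part of any of these features in the genotype difference was not tested.

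**Figure D4:**
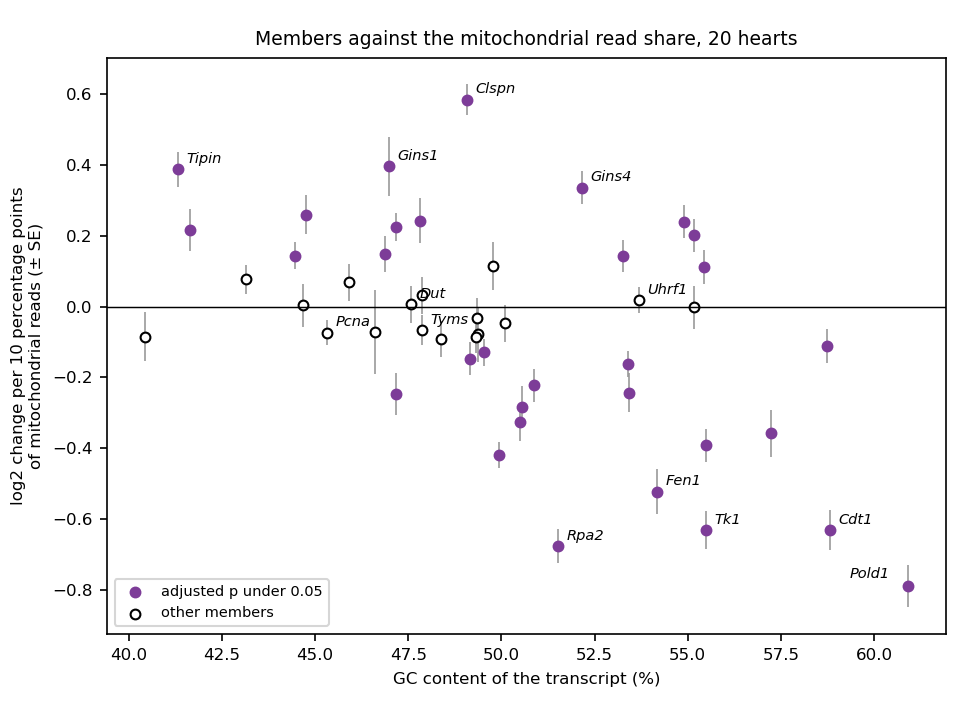
Change in log2 level per 10 percentage points of mitochondrial reads (y axis, with standard error) against the GC content of the transcript (x axis) for the 48 members, filled where the limma adjusted p is under 0.05. Pold1, Cdt1, Tk1 and Fen1 lie low at high GC content, while Uhrf1, Dut, Tyms and Pcna lie near 0.

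Without the 7 hearts with over 10% mitochondrial reads the members were still lower: 47 of 48 in Dp3Tyb, 43 of 48 in Ts1Rhr and 48 of 48 in the joint fit, with medians of -0.12, -0.10 and -0.10. The Ts1Rhr comparison was then small, with only WT replicates 3 and 5 against Ts1Rhr replicates 3, 4 and 5. The Dp3Tyb cohort kept replicates 1 to 4 of both groups, so the counts of the strains are not on equal footing. At an unadjusted limma p under 0.05 there were then 19 members lower in Dp3Tyb (background 4.42%), 3 in Ts1Rhr (1.65%) and 20 in the joint fit (5.44%), and 0 passed the adjusted threshold in any of the 3. With the share as a term in the joint fit instead, 48 of 48 were lower and 9 passed it (background 1.06% lower): Mcm7, Prim1, Prim2, Pcna, Rpa1, Rrm2, Tyms, Dut and Uhrf1. Their limma adjusted p-values ran from 0.00778 to 0.0463. With weights for library quality 11 passed (background 1.52% lower), and Pcna, Rrm2, Tyms, Dut and Uhrf1 were in the lists of DESeq2, of the share term and of the weights. Without Ts1Rhr replicates 1 and 2, whose labels name heart defects, 37 of 48 were lower in Ts1Rhr, by a median of -0.14, with 12 at an unadjusted limma p under 0.05 (background 9.04%) and 0 past the adjusted threshold. Replicates 1 and 2 were also the only Ts1Rhr hearts with over 10% mitochondrial reads, and WT replicates 1, 2 and 4, also over 10%, stayed in. The label and the mitochondrial share cannot be told apart in this fit.

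The pathway's other genes were also mostly below WT. Of 40 further replication genes, 32 were lower in Dp3Tyb, 31 in Ts1Rhr and 34 in the joint fit, with medians of -0.09, -0.09 and -0.07. Without the 7 hearts with over 10% mitochondrial reads the counts were 31, 31 and 32 and the medians -0.05, -0.06 and -0.06, and without Ts1Rhr replicate 5 the Ts1Rhr median was -0.06. In the joint fit 0 of them were called lower and 1 higher, Chaf1b, the CAF-1 partner of Chaf1a, which is in 3 copies in both strains. Chaf1b was 415, 450.0, 464, 458 and 564 in WT and 657, 609.6, 658, 624 and 817 in Dp3Tyb hearts, and 534, 537, 493, 614 and 438 in WT and 727, 786, 711, 642 and 598 in Ts1Rhr. The groups did not overlap in the Dp3Tyb cohort and overlapped by 1 heart in the Ts1Rhr cohort, and the joint difference was 0.46 ± 0.07 (limma adjusted p = 0.0023). Its 2-copy partner Chaf1a was at -0.07 ± 0.05.

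Of 23 regulators of the E2F, retinoblastoma and DREAM system, 18 were lower in Dp3Tyb, 17 in Ts1Rhr and 17 in the joint fit, and 15, 14 and 15 without those 7 hearts. Dyrk1a, the triplicated kinase that promotes assembly of DREAM, was higher at 0.42 ± 0.06 in the joint fit (limma adjusted p = 0.00183). Rbl1 (p107), a pocket protein that binds E2F4 and is itself a target of E2F, was lower at -0.22 ± 0.04 (limma adjusted p = 0.0192, range over the alternatives 4.92e-05 to 0.0598). It missed the threshold without the filter on low values (0.0598) and without Dp3Tyb replicate 1 (0.0508). Rbl1 measured 862, 891, 893, 908 and 1025 in WT and 751, 819, 767, 764 and 776 in Dp3Tyb hearts, and 913, 963, 912, 833 and 843 in WT and 806, 833, 704, 809 and 722 in Ts1Rhr. Every Dp3Tyb heart lay below every WT heart, and in the Ts1Rhr cohort the highest mutant heart and the lowest WT heart were level at 833. E2f1, the activating E2F factor, was at -0.10 ± 0.10 in Dp3Tyb and -0.04 ± 0.08 in Ts1Rhr and passed in no fit.

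Of 25 genes of mitosis, which follow replication in the cycle, 25 were lower in Dp3Tyb, 21 in Ts1Rhr and 25 in the joint fit, with medians of -0.14, -0.12 and -0.13 and 0 calls. In Dp3Tyb the median was -0.07 (20 of 25 lower) without WT replicate 5, and in Ts1Rhr it was -0.06 (19 of 25) without Ts1Rhr replicate 5. The Ts1Rhr median was also -0.06 with a term for the mitochondrial share, and it was -0.22 without Ts1Rhr replicates 1 and 2 and -0.20 with array weights. Lower values were thus also found in genes of mitosis, and no test of one list against another was made.

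Of the markers of the cell types a heart sample can hold, 0 were called by limma in any of these fits. The 10 cardiomyocyte markers summed to between 374697 and 540085 in WT and between 320183 and 463903 in Dp3Tyb hearts, with 8 of 10 lower in Dp3Tyb and 6 of 10 in Ts1Rhr (medians -0.15 and -0.03). In the Ts1Rhr cohort they summed to between 413886 and 491136 in WT and between 370949 and 502983 in Ts1Rhr. The 6 fibroblast and mesenchyme markers summed to 58999 to 91702 in WT and 78690.0 to 101802 in Dp3Tyb, and to 66373 to 95375 in WT and 67571 to 112590.0 in Ts1Rhr, with 0 and 1 of 6 lower (medians 0.19 and 0.12). The 7 macrophage markers summed to 1072 to 1830.4 in WT and 1589 to 1918 in Dp3Tyb, and to 1204 to 1510.5 in WT and 1296 to 2076 in Ts1Rhr, with 0 lower in either strain (medians 0.25 and 0.34). Of endothelial and endocardial markers 4 and 2 of 8 were lower, of epicardial markers 2 and 1 of 6, and of erythroid markers 1 of 9 and 1 of 10. Lung and foregut markers summed to at most 858 in any heart and had 0 of 6 lower in Dp3Tyb and 6 of 6 in Ts1Rhr, and the 7 liver markers summed to at most 220.6 in any heart. No marker was at 0 in every library. Their part in the difference of the replication genes was not tested.

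Several members share transcribed bases with a neighbour, and whether reads were counted by strand is not given in the sources used here. In the GRCm39 annotation genes on the opposite strand covered 72.7% of the exon bases of Fen1, 70.7% of Gins2, 60.5% of Rfc5 and 50% of Chaf1a, and protein-coding genes covered 34.2% of Rfc2 and 19.8% of Rfc4. Mcm7 shared 11.7% of its exon bases with Ap4m1 and 11.6% with Cops6, both protein-coding genes on the opposite strand. Noncoding genes on that strand covered 37.1% of Rrm2, 32.9% of Pcna and a further 16.3% of Rfc4. Values of these members may include reads of the neighbours, and how many was not measured.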

How the data were processed

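Whole hearts were sequenced after mRNA library preparation with the KAPA mRNA HyperPrep kit. Per the labels, the authors' processing notes name Trimmomatic 0.36, STAR 2.5.2a, RSEM 1.2.31 and DESeq2, with build GRCm38, without saying what each did. The deposited values are a signal per gene, reads divided by a library factor. All of them (100% in each library, tolerance 1e-06) are whole multiples of 1 step per library, and 1 divided by that step equals the median-of-ratios size factor of the library, so whole reads were recovered for the count-based alternatives. Since the values are normalised, the main test is limma on the log2 scale.

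Gene symbols, transcript lengths and GC content came from GENCODE vM39, which held 44565 of the 48795 identifiers (91.3%), and positions and promoter windows from RefSeq GRCm38.p6. Genes that reached a value of 10 in 5 or more libraries were fitted as log2(value + 1) with limma 3.58.1 in R 4.3.3 (trend and robust settings, Benjamini-Hochberg adjustment, threshold 0.05). Fold changes are on that log2 scale, positive where the mutant was higher, and those of low genes are understated. The fits were Dp3Tyb against its WT, Ts1Rhr against its WT, all 20 libraries with a cohort term, and the difference between strains. Alternatives were DESeq2 1.42.0, edgeR 4.0.16 and voom on recovered reads, other pseudocounts, no filter, terms for sex or mitochondrial share, array weights and left-out libraries. Each group held 3 female and 2 male hearts by sex-linked genes. The scripts were tested on simulated data.

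The 48 members and the other gene lists were chosen with earlier results of these data known. Values in every heart are given for the 5 members with the smallest p in each strain and in the joint fit, for the member with the smallest p for the difference between strains, and for Gmnn and Pcna, and fold changes for the extremes of each role. Of the other lists, genes past the threshold, Chaf1b, Dyrk1a and E2f1 are named. Tk1, Pold1, Clspn and Rfc4 were added after their values were seen, as were the slope on mitochondrial share and the fits without Ts1Rhr replicates 1 and 2. The labels name separate hearts and say nothing more of litters or dissection days, so p-values measure the spread between these samples. Of 24 listed E2F regulators, 23 were matched and tested.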

Additional observations from a re-analysis of the deposited data

Results flagged for a closer look

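In 80 groups of 5 hearts, 7 had a lowest or highest heart whose gap to the next heart exceeded 0.71 of the range of the group, where chance flags about 1 group in 20. Of the 7, 5 were of Tk1, Pold1 and Clspn, genes added after their values were seen, so the number is not to be read against that rate. All 7 were replicate 5 of a group of the Dp3Tyb cohort, the libraries with 19.5% (WT) and 15.5% (Dp3Tyb) mitochondrial reads. Tk1 was low at 366 in Dp3Tyb replicate 5. Pold1 was low at 308 in WT replicate 5 and at 359 in Dp3Tyb replicate 5. Clspn was high at 1075 in WT replicate 5 and at 891 in Dp3Tyb replicate 5. Chaf1b was high at 817 in Dp3Tyb replicate 5, and Rbl1 at 1025 in WT replicate 5. The cause was not tested.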

How the results depend on the processing

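Without 1 library, the median log2 fold change of the 48 members lay between -0.16 and -0.11 in Dp3Tyb, between -0.14 and -0.094 in Ts1Rhr and between -0.13 and -0.10 in the joint fit. Under the other alternatives the medians were -0.14 to -0.12, -0.16 to -0.10 and -0.13 to -0.10. The number of members past the threshold was 0 under every alternative run in Dp3Tyb, in Ts1Rhr and for the difference between strains. In the joint fit it was 0 in the main test and 5 by DESeq2, 9 with a mitochondrial share term and 11 with array weights, and 0 under the other alternatives run, edgeR and voom included. The cause was not tested. Of the results on single named members, 983 kept their direction and side of the threshold and 21 newly passed it. The log2 fold change of Orc6 in Dp3Tyb turned to 0.0042 with array weights and ran from -0.050 to 0.0067 with 1 library left out (above 0 without WT replicate 5 or Dp3Tyb replicate 2), and that of Cdc45 in Ts1Rhr ran from -0.10 to 0.017 (above 0 without Ts1Rhr replicate 5). No paired analysis was run, because the labels do not say which hearts share a litter. WT and mutant samples alternate in the order of the samples. Within a cohort, hearts with the same replicate number had the same sex by sex-linked genes. Differences between such neighbours were not tested. With 5 hearts per group, the standard errors of the members had a median of 0.09 in each strain, and the shallowest library holds 6.60 M reads.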

Other observations

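Without the 7 hearts with over 10% mitochondrial reads 24, 20 and 25 of the 25 mitosis genes were lower in Dp3Tyb, in Ts1Rhr and in the joint fit. The 6 lung and foregut markers tested were all above WT in Dp3Tyb hearts, by a median log2 fold change of 1.83, and all below WT in Ts1Rhr hearts, at -1.70. None of them passed the threshold, and their part in the other results was not tested.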
